A study of Mus musculus with 6 samples.

Results

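The chromatin remodelers described here are the 41 genes, of 10989 in the deposited table, whose symbols begin with Smarca to Smarce, Arid1 to Arid5, Chd and a digit, Ino80, Baz1 or Baz2, or equal Bptf. They were chosen by name, with no measured value, under a rule set with earlier results of these data known. Their transcripts were compared between mouse embryonic stem cells with and without a working Ddx5 gene, which encodes the RNA helicase DDX5 (p68). Both groups are MPI-II cells at passages 13 to 18, grown on feeder cells in serum medium with LIF (leukemia inhibitory factor) and inhibitors of MEK (PD0325901) and GSK3 (CH99021). The wild-type group (WT) holds 2 libraries, and the labels do not say that they came from separate cultures. The knockout group (KO, DDX5-/-) holds 4 lines, each expanded from 1 cell after transfection of Cas9 nickase with a guide pair against exon 2 and a selection in G418 that the labels give for the knockout lines alone. Ddx5 loss therefore cannot be told apart from the cloning and selection that every KO line went through. Spread among these 6 libraries is all that the p-values measure, and whether it is technical in WT is not stated. The 2 WT libraries correlated at 0.934 on the log2 scale, and the KO lines with each other at 0.967 to 0.99. WT replicate 1 correlated with KO line 1 at 0.932.

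Chromatin remodelers are multi-subunit machines that use ATP to slide, evict or exchange nucleosomes. Each is built around an ATPase of the SNF2 type: Smarca4 (BRG1) in SWI/SNF, Smarca5 (SNF2H) and Smarca1 (SNF2L) in ISWI, Chd3 and Chd4 in NuRD, and Ino80 in the complex of that name. Embryonic stem cells use a form of SWI/SNF known as esBAF, and Smarca4 and Chd4 are known for roles in self-renewal and in leaving it.

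Levels are in deposited units, a normalized score described under the processing, and log2 changes are KO minus WT on the scaled value plus 1. Ddx5 stood at 36433 and 36436 units in WT and at 5854, 8450, 12793 and 5659 units in KO lines 1 to 4 (log2 -2.23, SE 0.317, adjusted p = 0.00807, limma). Every KO line was below both WT libraries. Of 12 stem cell markers, 1 rose, 1 fell and 10 did not pass the test. Nanog went from 13562 and 12197 units to 20699, 20699, 24993 and 29828 units (log2 0.89, adjusted p = 0.0154), and Klf4 from 5926 and 4828 units to 2890, 2344, 2658 and 3286 units (log2 -0.94, adjusted p = 0.0116). Nanog lies on chromosome 6, whose median was highest in KO line 4, as given below. The part of the chromosome in its rise was not tested. Pou5f1 (Oct4), which did not pass, lay between 13545 and 17548 units in the 6 libraries. Of 18 measured markers of feeder fibroblasts, 16 were lower in KO, with a mean log2 level of 6.88 and 6.04 in WT and of 3.58 to 4.14 in KO. Their summed level was 83978 and 56188 units in WT and 42783 to 46050 units in KO. Of this, Fn1 alone made up 36452 and 29855 units in WT and 36452 units in every KO line. Fn1 did not pass the test (log2 0.14, adjusted p = 0.283). None of the 18 was at 0 in WT, and 1, Col6a3, was at 0 in KO line 4. In bulk RNA, fewer cells of a type and less RNA per cell cannot be told apart. In WT replicate 2, 131 genes were at 0, and in the other libraries 13 to 19.

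Promoter sequence from RefSeq (build GRCm38.p6) was found for 30 of the 41 genes, in 37 windows of 250 bases before a transcript start. The pair below shows a member that fell, Arid5b, beside the SWI/SNF ATPase Smarca4, which did not pass the test. Capitals mark the motifs searched on both strands, which were GGGCGG (named the Sp1 box), CCAAT (named the CCAAT box), TATAAA (named the TATA box) and CACGTG (named the E box). No motif overlaps another in these windows.
Arid5b, chr10:68278727-68278976, minus strand: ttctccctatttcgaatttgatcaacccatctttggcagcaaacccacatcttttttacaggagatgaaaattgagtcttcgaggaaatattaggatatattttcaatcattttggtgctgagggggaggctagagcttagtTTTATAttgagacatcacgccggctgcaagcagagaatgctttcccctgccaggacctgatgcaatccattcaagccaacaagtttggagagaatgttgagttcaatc
Smarca4, chr9:21615919-21616168, plus strand: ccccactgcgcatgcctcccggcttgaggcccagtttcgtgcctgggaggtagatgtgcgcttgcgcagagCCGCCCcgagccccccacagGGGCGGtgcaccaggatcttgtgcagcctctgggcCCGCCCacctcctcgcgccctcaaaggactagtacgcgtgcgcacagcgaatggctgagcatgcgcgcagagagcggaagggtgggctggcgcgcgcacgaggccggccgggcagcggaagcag

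The Smarca4 window is 70.8% G or C with 25 CpG sites and 3 Sp1 boxes, and the Arid5b window is 42% with 4 CpG sites, no Sp1 box and TATAAA on the reverse strand. Of the other members that fell, Chd3 and Smarce1 had no window, and that of Arid4b is 54% G or C with CCAAT and no TATAAA. The window of Baz2b, which rose, is 41.2% with TATAAA. Whether promoter type goes with the change in KO was not tested. The median over the remodeler windows was 63.6% G or C, against 60% over the 10625 windows of genes in the table. The Sp1 box occurred in 27 of 37 (73%), against 59.2% of the windows of genes in the table and 32.7% of all 32851. CCAAT occurred in 12 (32.4%, against 36.4% and 33.8%), and the E box in 2 (5.41%, against 8.68% and 6.02%). TATAAA occurred in 3 (8.11%, against 6.19% and 12.4%), those of Arid5b, Baz2b and Smarcd2. The Baz2b and Smarcd2 windows belong to starts 84099 and 5340 bases inside the gene as GENCODE draws it, so they are not the outermost promoters. Of all 37 windows, 30 belong to starts within 1000 bases of the GENCODE start. The median and shares above count all 37, and some genes have more than 1 window. A match is a description of the letters and not a binding site.

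Of the 41 remodeler genes, 3 rose and 4 fell in KO, and 34 did not pass the test (adjusted p under 0.05). Those 7 are 17.1% of the members, and 17.1% of all genes were called (9.75% higher and 7.34% lower). The genes that rose were Baz2b, Arid3a and Smarcd2, and those that fell were Chd3, Arid5b, Arid4b and Smarce1. The median log2 change was -0.03 over the members and 0.04 over all genes, and the median size of the change was 0.28 and 0.29. The groups did not overlap for 18 members (43.9%), with KO above WT in 9 and below it in 9, and for 43.7% of all genes. By each of these counts the 41 genes moved about as often as the table as a whole. Of the 7 called, 3 are among the 6 ARID proteins outside SWI/SNF, which the rule takes in by name. Without KO line 2 or without KO line 3, 0 members were called higher and 1 lower, while 2.16% and 2.79% of all genes were called higher and 2.14% and 2.42% lower. Without WT replicate 1 the members' counts were 5 and 5, and 18.3% of all genes were called higher and 11.8% lower.

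**Figure D1:**
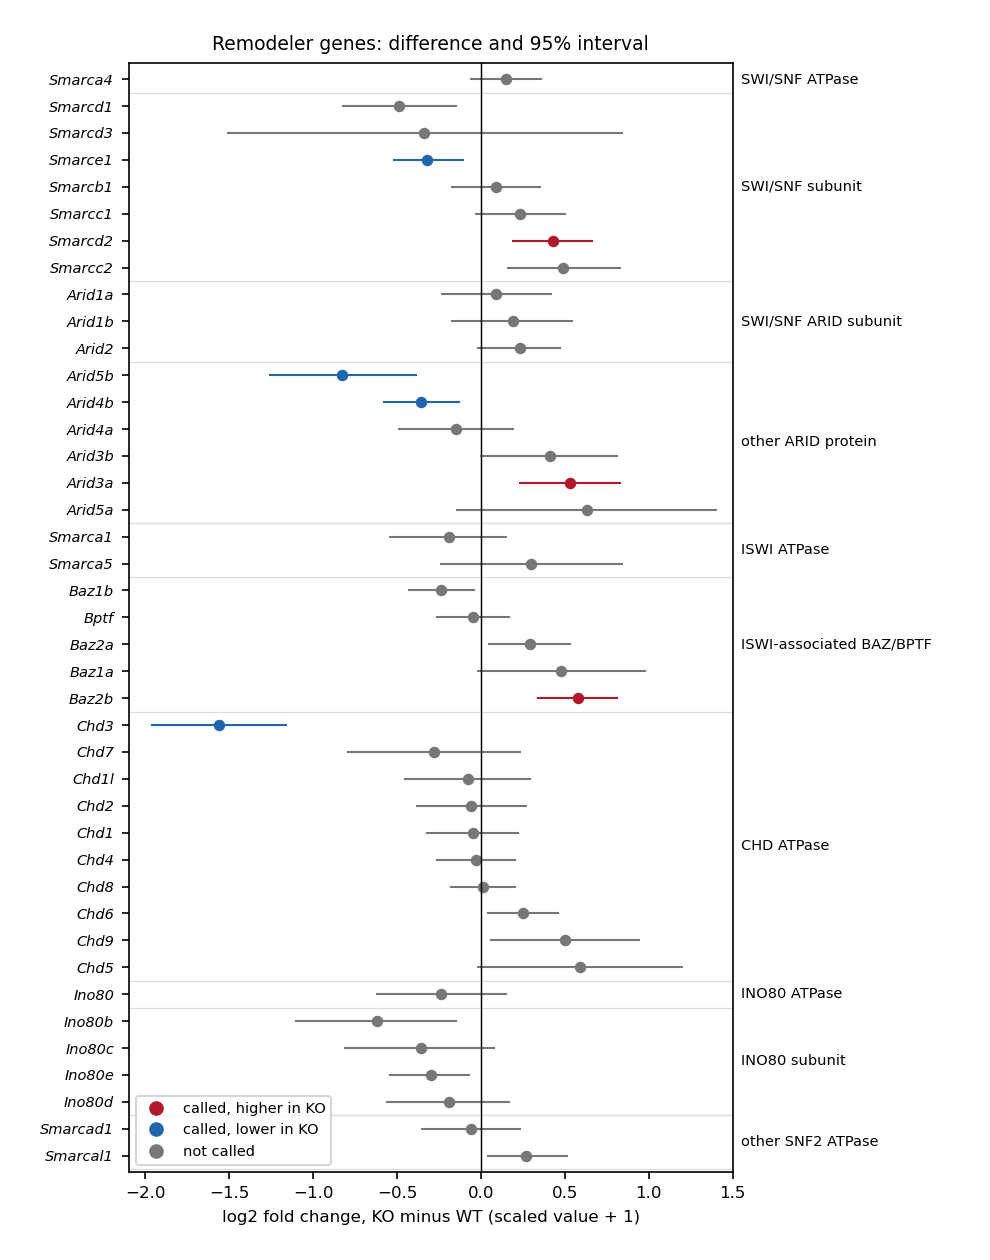
Log2 fold change (KO minus WT) of each of the 41 remodeler genes, grouped by family. Points are estimates from limma, bars are 95% intervals, and colour marks the 3 genes called higher, the 4 called lower and the 34 not called. Chd3, at -1.56, stands apart from the rest, which lie between -0.83 and 0.63.

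Chd3, an alternative ATPase of the nucleosome remodeling and deacetylase complex NuRD, had the largest change of any member. It stood at 400 and 518 units in WT and at 130, 156, 135 and 160 units in KO lines 1 to 4. The KO lines were close to each other and all lay well below the lower WT library. The mean went from 459 ± 83.4 (SD, n = 2) to 145 ± 15 (SD, n = 4), or 0.316 of the WT level, a log2 change of -1.56 (SE 0.171, adjusted p = 0.00452, limma). It was called whichever library was left out, with log2 changes of -1.74 to -1.38 and adjusted p up to 0.0234. None of the other 6 called members was called in every such fit. The fibroblast markers were lower in the same lines, but among the WT libraries they ranked the other way, at a mean log2 level of 6.88 in WT replicate 1, where Chd3 was 400, and of 6.04 in WT replicate 2, where it was 518. Their part in the fall of Chd3 was not tested.

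**Figure D2:**
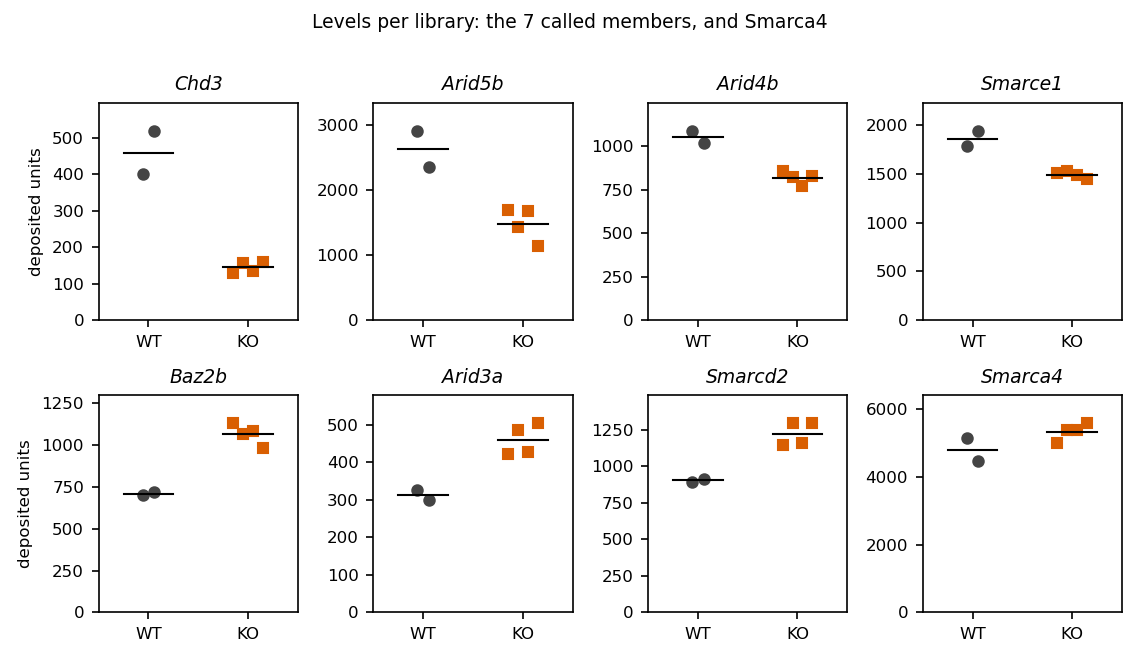
Level in deposited units of the 7 called remodeler genes and of Smarca4, in each WT library (circles, n = 2) and each KO line (squares, n = 4). Horizontal lines are group means, and each axis starts at 0. Arid5b, Arid4b and Arid3a belong to the ARID proteins outside SWI/SNF. In the 7 called genes the groups do not overlap, while the Smarca4 value of WT replicate 1 lies within the KO range.

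Chd4, the main NuRD ATPase of embryonic stem cells, had 7916 and 8872 units in WT and 7916, 7705, 8101 and 9100 units in KO. The groups overlapped and the log2 change was -0.03 (95% interval -0.26 to 0.20, adjusted p = 0.828). Chd5, the neural member of the same subfamily, was low throughout, at 58 and 108 units in WT and 111, 136, 130 and 134 units in KO. Its KO lines lay just above the higher WT library, without passing the test (log2 0.59, SE 0.259, adjusted p = 0.151). It passed only without WT replicate 2 (adjusted p = 0.0367).

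The CHD proteins outside NuRD did not pass the test. Chd1 remodels nucleosomes at transcribed genes and is needed for the open chromatin of stem cells. It had 2746 and 2159 units in WT and 2257, 2316, 2359 and 2459 units in KO. Its KO lines fell inside the WT range (log2 -0.05, interval -0.32 to 0.22). The KO lines of Chd2, its close paralog, also lay inside the WT range, with 2304 and 1680 units in WT and 1979, 1854, 1766 and 1970 units in KO (log2 -0.06). Chd8, a regulator of Wnt and p53 target genes that is mutated in autism, was the steadiest of the family, at 2216 and 2328 units in WT and 2330, 2316, 2306 and 2202 units in KO. Its log2 change was 0.01, with an interval of -0.18 to 0.20.

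Chd6 stood at 938 and 920 units in WT and at 1150, 1135, 1082 and 1072 units in KO. The groups did not overlap, but the difference did not pass (log2 0.25, adjusted p = 0.0925). Chd7, the gene mutated in CHARGE syndrome, had 596 and 656 units in WT and 408, 462, 516 and 716 units in KO. KO lines 1 to 3 were below WT and KO line 4 above it (log2 -0.28, interval -0.79 to 0.23). Chd1l, a remodeler recruited by poly(ADP-ribose) to DNA damage, overlapped between groups (log2 -0.08). It had 604 and 678 units in WT and 491, 636, 600 and 706 units in KO. Chd9 is described with its chromosome below.

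In SWI/SNF, the catalytic subunit Smarca4 stood at 5134 and 4472 units in WT and at 5002, 5364, 5364 and 5570 units in KO. The groups overlapped through KO line 1, and the log2 change was 0.15 (95% interval -0.06 to 0.36, adjusted p = 0.275). The core scaffold subunits Smarcb1 and Smarcc1 did not pass either, with log2 changes of 0.09 and 0.23. Smarcc1, the BAF155 subunit that prevails in esBAF, ran from 3989 to 4942 units in WT and from 4864 to 5678 in KO. It passed only without WT replicate 1 (adjusted p = 0.0371). Its paralog Smarcc2 (BAF170) stood at 626 and 650 units in WT and at 796, 1056, 970 and 819 units in KO. All KO lines were higher, and the difference just missed the threshold (log2 0.49, SE 0.141, adjusted p = 0.0537).

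Of the 3 BAF60 subunits, which link SWI/SNF to transcription factors, Smarcd2 passed the test. It rose from 893 and 915 units in WT to 1144, 1294, 1160 and 1294 units in KO. Every KO line was above WT, by 1.35-fold on the means (log2 0.43, SE 0.1, adjusted p = 0.032). Smarcd1, the form used in embryonic stem cells, stood at 2644 and 3535 units in WT and at 2053, 1996, 2244 and 2424 units in KO. Its KO lines lay below both WT libraries without passing (log2 -0.49, adjusted p = 0.0556), and it passed without WT replicate 1 (adjusted p = 0.0154). Smarcd3, known from heart and muscle, spread more than any other member, at 390 and 196 units in WT and at 218, 116, 188 and 450 units in KO. KO line 4 was the highest library and KO line 2 the lowest (log2 -0.34, interval -1.51 to 0.84).

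Smarce1 (BAF57), the subunit with an HMG domain, fell slightly. It stood at 1787 and 1939 units in WT and at 1513, 1528, 1484 and 1444 units in KO, which is 0.801 of the WT mean (log2 -0.32, SE 0.0865, adjusted p = 0.048). The KO lines were within 0.08 log2 units of each other and below both WT libraries. The calls of Smarcd2 and Smarce1 were close to the threshold, and their log2 changes with a library left out ran from 0.40 to 0.46 and from -0.37 to -0.26. With a library left out, Smarcd2 passed only without KO line 1 (adjusted p = 0.0487, otherwise up to 0.108) and Smarce1 only without WT replicate 1 (adjusted p = 0.0307, otherwise up to 0.132).

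The large ARID subunits define which SWI/SNF form is built, Arid1a and Arid1b the BAF form and Arid2 the PBAF form. Arid1a stood at 4197 and 3122 units in WT and at 4294, 3798, 3871 and 3543 units in KO, where the groups overlapped (log2 0.09). Arid1b ran from 500 to 682 units in WT and from 607 to 742 in KO (log2 0.19). Arid2 stood at 1229 and 1138 units in WT and at 1404, 1326, 1304 and 1524 units in KO. Its groups did not overlap, but the difference did not pass (log2 0.23, interval -0.02 to 0.47, adjusted p = 0.161).

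The other ARID proteins bind DNA through the same domain but are not SWI/SNF subunits, and 3 of these 6 were called, a number too small to set against the 17.1% called over all genes. Arid5b, a cofactor of the histone demethylase PHF2, stood at 2903 and 2350 units in WT and at 1694, 1426, 1675 and 1138 units in KO. All KO lines were below WT, at 0.565 of its mean (log2 -0.83, SE 0.183, adjusted p = 0.0265). Arid4b, part of the SIN3 histone deacetylase complex, fell from 1086 and 1017 units to 856, 822, 770 and 827 units (log2 -0.36, SE 0.0963, adjusted p = 0.0469). Its paralog Arid4a overlapped between groups (400 to 464 units in KO, 410 and 536 in WT, log2 -0.15).

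Arid3a, a transcription factor named in trophoblast and B cell development, rose. It stood at 326 and 300 units in WT and at 422, 486, 428 and 504 units in KO, 1.47-fold higher on the means (log2 0.53, SE 0.127, adjusted p = 0.0331). Its paralog Arid3b, at 1027 and 669 units in WT and 1180, 1023, 1077 and 1138 units in KO, overlapped with WT replicate 1 and did not pass (log2 0.41, adjusted p = 0.139). It passed only without WT replicate 1 (adjusted p = 0.0113). Arid5a, which stabilizes inflammatory messenger RNAs, was low, at 40 and 62 units in WT and 110, 84, 100 and 56 units in KO (log2 0.63, adjusted p = 0.213).

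Calls among these ARID proteins depended on the libraries used, while the log2 changes kept their sign. With a library left out these changes ran from -0.40 to -0.31 for Arid4b, from 0.47 to 0.59 for Arid3a and from -0.98 to -0.68 for Arid5b. Arid4b did not pass with any library left out (adjusted p = 0.0624 to 0.133), and of those fits Arid3a passed only in the one without WT replicate 1 (adjusted p = 0.0314, otherwise up to 0.11). Arid5b lost its call without WT replicate 1, KO line 2 or KO line 3 (adjusted p = 0.0775, 0.0796 and 0.0577). Of the WT libraries, replicate 1 had the more Arid5b, as it had more of 17 of 18 fibroblast markers, and 16 of these 18 were lower in KO too. Their part in its fall was not tested.

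The ISWI group has 2 ATPases, neither of which passed. Smarca1, the less abundant form outside neurons, stood at 464 and 406 units in WT and at 352, 358, 356 and 452 units in KO. KO lines 1 to 3 were nearly equal and below WT, and KO line 4 lay between the WT libraries (log2 -0.19, interval -0.54 to 0.15). Smarca5 is described with its chromosome below. Of the large subunits that carry bromodomains, Baz2b rose. It stood at 700 and 720 units in WT and at 1130, 1067, 1085 and 984 units in KO, 1.5-fold higher on the means with no overlap (log2 0.58, SE 0.0985, adjusted p = 0.0133). Its call was lost without KO line 2 or KO line 3 (log2 0.57 in each, adjusted p = 0.0581 and 0.055).

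Baz2a (TIP5), which targets ISWI to silent ribosomal DNA, stood at 6310 and 6188 units in WT and at 8462, 8101, 6970 and 7117 units in KO. Every KO line was higher, but the difference did not pass (log2 0.29, adjusted p = 0.0932). Baz1b, the Williams syndrome transcription factor, pointed down, from 3326 and 3128 units to 2774, 2792, 2810 and 2582 units, also with no overlap (log2 -0.24, adjusted p = 0.0913). Baz1a (ACF1) stood at 514 and 318 units in WT and at 510, 687, 576 and 518 units in KO (log2 0.48, adjusted p = 0.155). Its KO line 1 lay just inside the WT range, and it passed only without WT replicate 1 (adjusted p = 0.0267). Bptf, the large subunit of the ISWI complex NURF, ran from 3666 to 3942 units in WT and from 3434 to 3907 in KO (log2 -0.05, interval -0.26 to 0.17).

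In the INO80 complex, which shifts nucleosomes and acts in replication and repair, all 5 members had negative log2 changes and none passed. Over all genes, 5033 of 10989 changes were negative, and whether these 5 differ from that was not tested. The sign turned for Ino80 without WT replicate 2 (0.02) and for Ino80d without WT replicate 1 (0.04). The ATPase Ino80 stood at 1182 and 1702 units in WT and at 1335, 1246, 1166 and 1078 units in KO, with overlap (log2 -0.24, interval -0.62 to 0.15). It passed only without WT replicate 1 (adjusted p = 0.0451), which leaves the higher library as WT. For Ino80b, Ino80c and Ino80e the KO lines all lay below WT, as they did for 2156 of the 10989 genes. Ino80b stood at 234 and 351 units in WT and at 158, 178, 211 and 180 units in KO (log2 -0.62, adjusted p = 0.074), and passed only without WT replicate 1 (adjusted p = 0.0182). Ino80e went from 2406 and 2214 units to 1968, 1833, 1977 and 1712 units (log2 -0.30, adjusted p = 0.0761), and passed with the chromosome median removed from each library (adjusted p = 0.0281). Ino80c and Ino80d had log2 changes of -0.36 and -0.19.

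The remaining SNF2 ATPases named Smarca act singly. Smarcal1, which rewinds DNA at stalled replication forks, stood at 634 and 705 units in WT and at 834, 820, 817 and 778 units in KO. The KO lines were higher without overlap, and the difference did not pass (log2 0.27, adjusted p = 0.0948). Smarcad1 maintains silent chromatin through replication. It had 3230 and 2940 units in WT and 3177, 2644, 2726 and 3353 units in KO (log2 -0.06). Of the 16 catalytic members in all, 1 was called (Chd3), and of the 25 other members 6 were called (6.25% and 24%, with 17.1% over all genes). The difference was not tested.

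On chromosomes 8 and 6, which hold 2 and 3 members, the median of all measured genes differed between libraries. Relative to the mean of the 6 libraries, the median of 603 chromosome 8 genes was -0.34 in WT replicate 1 and -0.32 in KO line 1, against 0.07 in WT replicate 2 and 0.16 to 0.22 in KO lines 2 to 4. Smarca5 (chromosome 8, 80698507 to 80739497) stood at 7130 units in WT replicate 1 and 8478 in KO line 1, against 11466 in WT replicate 2 and 12835, 12232 and 11466 in KO lines 2 to 4. The low libraries of this gene were thus the low libraries of its chromosome, 1 in each group. Its log2 change was 0.30 (interval -0.24 to 0.84, adjusted p = 0.389), and 0.10 after the chromosome median was removed from each library.

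Chd9 (chromosome 8, 90828352 to 91054516) stood at 896 and 1040 units in WT and at 1038, 1468, 1420 and 1642 units in KO. KO line 1 lay within the WT range and the other KO lines above it (log2 0.50, adjusted p = 0.102). The change was 0.30 with the chromosome median removed (adjusted p = 0.0878), and 0.63 without KO line 1, where it passed (adjusted p = 0.0331). On chromosome 6 the median of 518 genes was 0.42 in KO line 4 and between -0.16 and -0.04 in the others. Chd4 and Smarcad1 were each highest in KO line 4 but by less, at 0.14 and 0.16 above their means, and Ino80b was 0.21 below its mean there (log2 -0.21). Removing the chromosome median gave log2 changes of -0.21 for Chd4, -0.23 for Smarcad1 and -0.80 for Ino80b, none of which passed (adjusted p = 0.248, 0.198 and 0.0602).

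**Figure D3:**
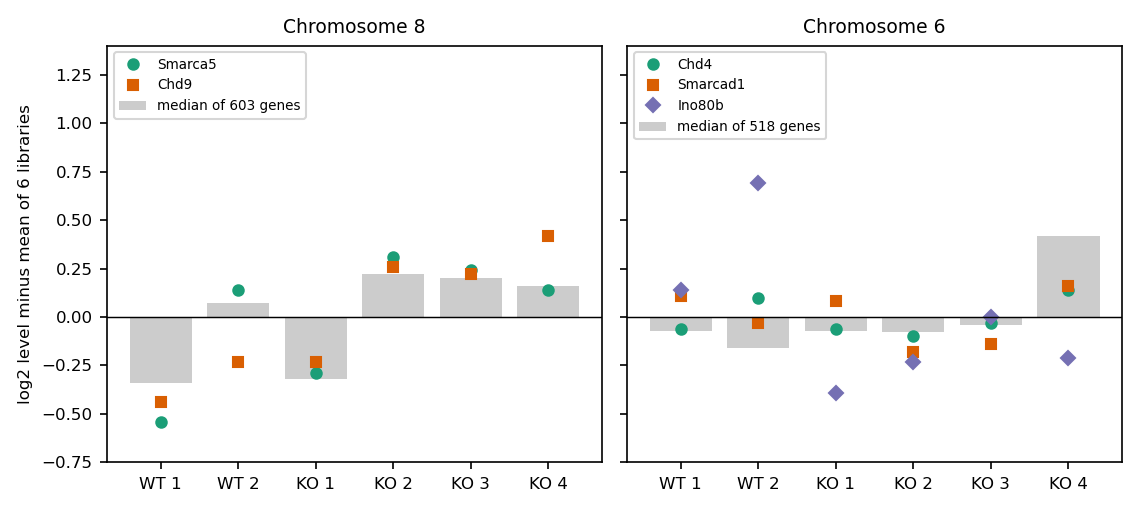
Log2 level minus the mean of the 6 libraries, for the remodeler genes on chromosome 8 (left) and chromosome 6 (right), by library. Bars are the median of all measured genes on the chromosome and points are single genes. WT replicate 1 and KO line 1 are low on chromosome 8, at -0.34 and -0.32, and so are Smarca5 and Chd9. Chd9 is also below its mean in WT replicate 2 (-0.23). KO line 4 is high on chromosome 6, at 0.42.

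Paralogs that can take the same place in a complex were compared as a log2 ratio within each library, read for its change and not its size since the values are not per length. Smarca2, the alternative ATPase to Smarca4, has no row in the table used here. For Chd4 over Chd3 the ratio was 4.31 and 4.10 in WT and 5.93, 5.63, 5.91 and 5.83 in KO. The groups were far apart, with a shift of 1.62. For Arid1a over Arid1b it was 2.62 and 2.64 in WT and 2.53, 2.51, 2.56 and 2.55 in KO. That shift, -0.10, is small, but both groups were tight (SD 0.0148 and 0.0202), and the KO lines did not reach WT.

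The other 4 ratios overlapped between groups, with shifts of 0.50 for Smarca5 over Smarca1, -0.27 for Smarcc1 over Smarcc2, -0.13 for Arid1a over Arid2 and -0.13 for Smarcd1 over Smarcd3. The first of these carries the chromosome 8 values given above. These shifts changed with the WT library used. On the scaled value plus 1, Smarca5 over Smarca1 shifted by 0.06 without WT replicate 1 and 0.93 without WT replicate 2, and Smarcc1 over Smarcc2 by -0.08 and -0.44. Arid1a over Arid2 turned sign between the same fits (0.03 and -0.29), as did Smarcd1 over Smarcd3 (-0.83 and 0.53). On that scale Chd4 over Chd3 shifted by 1.53 with all libraries, by 1.63 without WT replicate 1, by 1.43 without WT replicate 2, by 1.35 with chromosome medians removed and by 1.24 with a pseudocount of 5. In an exact two-sided permutation test of 2 against 4 libraries, Chd4 over Chd3 and Arid1a over Arid1b both gave p = 0.0667, the smallest the design allows (0.2 adjusted over the 6 pairs). No pair can therefore pass 0.05.

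**Figure D4:**
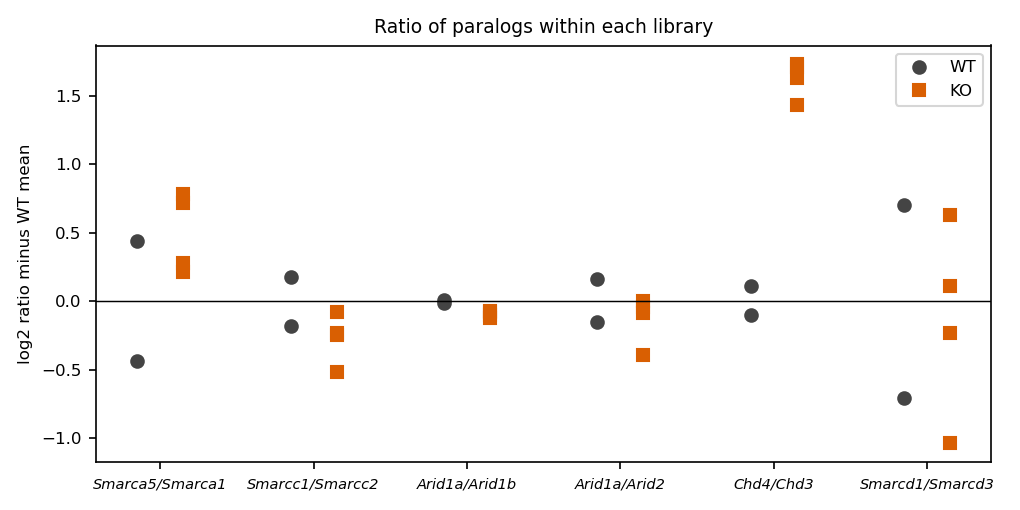
Log2 ratio of paralogous remodeler genes in each library, minus the mean of the 2 WT libraries (circles WT, squares KO lines). The KO lines of Chd4/Chd3 lie 1.62 above WT on average, those of Arid1a/Arid1b lie 0.10 below with little spread, and the other 4 pairs overlap.

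The genes that complete these complexes, together with other SNF2-type ATPases, numbered 68 beside the members. Of them 5 rose, 8 fell and 55 did not pass, so 19.1% were called against 17.1% of all genes. In SWI/SNF, 2 of 15 fell (13.3%) and none rose. Bcl7b, a subunit found across SWI/SNF forms, went from 550 and 621 units to 332, 338, 338 and 352 units (log2 -0.76, SE 0.111, adjusted p = 0.00859). Its KO lines were nearly equal and it was called whichever library was left out (adjusted p up to 0.0436). The actin-related subunit Actl6a (BAF53A), shared with INO80 and TIP60, went from 3466 and 3918 units to 2940, 2719, 3010 and 2719 units (log2 -0.37, adjusted p = 0.0391). With a library left out, it kept its call only without WT replicate 1 (otherwise adjusted p up to 0.12). Pbrm1, which marks PBAF, had a log2 change of -0.01.

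Of 12 NuRD partners 1 rose and none fell, which is 8.33% called, with 17.1% over all genes. Mta1, the subunit that anchors the histone deacetylases, went from 1680 and 1690 units to 2330, 2818, 2491 and 2747 units (log2 0.62, SE 0.105, adjusted p = 0.0131). The KO lines were all higher, and among the leave-out fits the call was lost in the one without KO line 2 (adjusted p = 0.0536). The deacetylases Hdac1 and Hdac2 had log2 changes of 0.05 and -0.03, and Mbd3, the subunit that stem cells need to leave self-renewal, of -0.42 (adjusted p = 0.0824). Of 6 ISWI partners 1 fell (16.7%). Chrac1, a histone-fold subunit of CHRAC, went from 400 and 512 units to 261, 239, 220 and 270 units (log2 -0.84, SE 0.154, adjusted p = 0.0162).

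Of the 24 partners listed for INO80, SRCAP and TIP60, 5 fell and none rose, which is 20.8% called, with 17.1% over all genes. Over all genes 7.34% were called lower and 9.75% higher. Actl6a, counted under SWI/SNF above, is not among the 24. Whether the set differs from all genes in direction was not tested. Tfpt and Uchl5, both INO80 subunits, had log2 changes of -0.73 and -0.64 (adjusted p = 0.038 and 0.0197). Epc1 and Brd8, both of the TIP60 acetyltransferase complex, had changes of -0.62 and -0.55 (adjusted p = 0.0222 and 0.0185). Uchl5, a deubiquitinase that also serves the proteasome, stood at 1650 and 2174 units in WT and at 1190, 1288, 1162 and 1203 units in KO. The KO lines were close together and below WT. Ruvbl1 and Ruvbl2, the AAA ATPases shared by these complexes, did not pass (log2 -0.14 and 0.15).

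Of 15 other SNF2-type ATPases 4 rose and none fell, which is 26.7% called, with 17.1% over all genes (9.75% higher). This difference was not tested. Hells (LSH), which DNA methylation of repeats depends on, went from 5872 and 5790 units to 8881, 9702, 9394 and 8881 units, 1.58-fold higher on the means (log2 0.66, SE 0.0753, adjusted p = 0.00509). All KO lines were far above both WT libraries, and it was called whichever library was left out (adjusted p up to 0.0278). Ercc6, the Cockayne syndrome repair factor CSB, rose by 0.72, Rad54b, a recombination factor, by 0.69 and Ercc6l2 by 0.45 on the log2 scale (adjusted p = 0.0236, 0.0371 and 0.0243). Atrx, the partner of DAXX in histone H3.3 deposition, had a log2 change of -0.07, and Srcap of 0.02.

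Among these named partners, Chrac1, Uchl5, Brd8 and Ercc6 lost their calls without KO line 2 or KO line 3 (adjusted p up to 0.0617, 0.0672, 0.0688 and 0.0797). Their log2 changes were -0.82 and -0.79, -0.67 and -0.62, -0.54 and -0.58, and 0.72 and 0.67 in those fits. With a library left out, Tfpt and Rad54b passed only without WT replicate 2 (otherwise adjusted p up to 0.103 and 0.104). Epc1 lost its call without WT replicate 2, KO line 1 or KO line 2 (up to 0.0767), and Ercc6l2 without KO line 1, 2 or 3 (up to 0.0916).

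**Figure D5:**
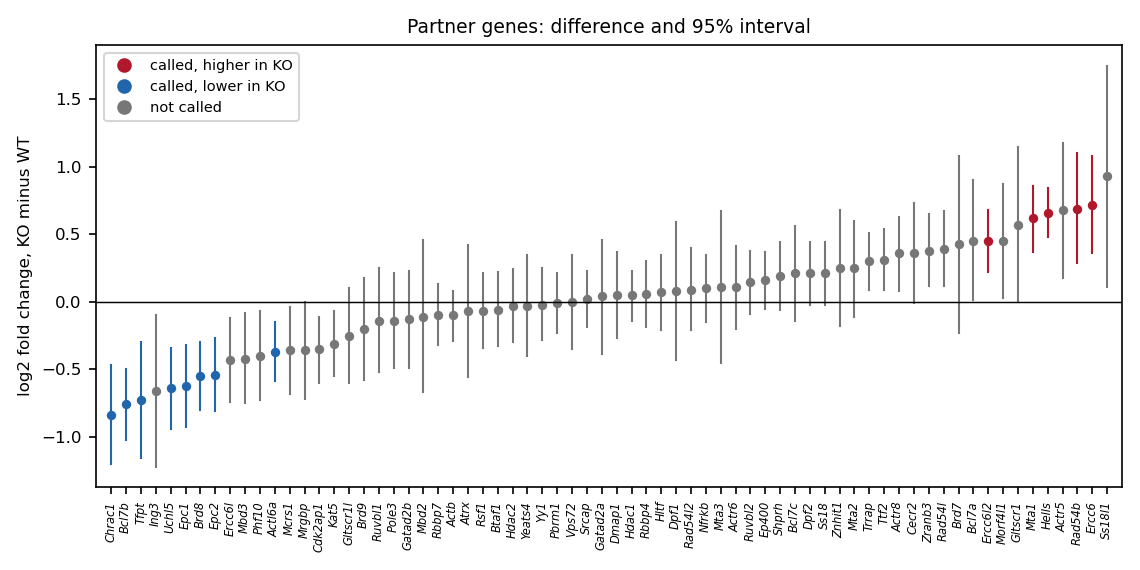
Log2 fold change (KO minus WT) of the 68 partner genes, ordered by size. Points are limma estimates, bars are 95% intervals, and colour marks the 5 genes called higher, the 8 called lower and the 55 not called. Called genes lie between -0.84 and 0.72.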

How the data were processed

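RNA of 6 libraries (2 WT, 4 KO) was sequenced. RSEM 1.2.17, Bowtie2 2.2.0 and build mm10 are listed in the submitters' processing notes. For the role of each tool, the annotation and the normalization, the labels and the file give no statement. Values as deposited carry the name CPM but are whole numbers summing to between 14612799 and 14722877 per library, with the same highest value, 78894, in each. They were treated as a normalized score made by the authors. Between 65 and 355 genes hold identical values in a pair of libraries. The depth behind the values is not known, so counting intervals were not computed.

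The design had assumed CPM. Values were divided by 14.7, so that a library sums to about the total that CPM would give, 1 was added and log2 taken. Genes needed a scaled value of 1 in 2 libraries, which removed 0. KO and WT were compared over all genes with limma 3.58.1 in R 4.3.3 (lmFit, eBayes with trend, two-sided, no covariate, 4 residual degrees of freedom), with Benjamini-Hochberg adjustment over 10989 genes. Positions came from GENCODE M21 (mm10), matched by gene identifier for 10941 genes. Values in every library are given for each catalytic member and each other called member, and for further members where these help. Partner genes are up to 4 called per list, by size of change. The other partners named (Pbrm1, Hdac1, Hdac2, Mbd3, Ruvbl1, Ruvbl2, Atrx and Srcap) were chosen after their values were seen. The rule for members uses symbols alone, but it and the gene lists were set with earlier results of these data known. Alternatives were other pseudocounts, filters and normalizations, chromosome centring, a replicate block, no variance trend and leaving out each library. Where 1 WT library is left, it is assumed to vary like the KO lines.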

Additional observations from a re-analysis of the deposited data

Results flagged for a closer look

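Among the 4 KO lines, 2 of the 54 genes checked had a line far from the others, measured as the gap to the nearest line over the whole range on the log2 scale and set against Dixon's 95% limit for 4 libraries. Chance gives about 1 gene in 20. For Smarca1 the gap share was 0.933, with KO line 4 the highest at 452 units against 352 to 358 in the others. For Baz1b it was 0.848, with KO line 4 the lowest at 2582 units against 2774 to 2810.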

How the results depend on the processing

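The 3 higher and 4 lower members kept their counts with either other pseudocount and with quantile normalization. Either other filter kept all 10989 genes, so those fits could not differ from the main one. Median ratio scaling gave 3 higher and 5 lower members (8.79% and 8.78% of all genes), which added Smarcd1 (adjusted p = 0.0489, limma). Lower members numbered 7 with chromosome centring (10.3% of all genes), which added Baz1b, Ino80e and Smarcd1, and 2 without the variance trend (6.55%). With a library left out, higher members numbered 0 to 5 and lower members 1 to 5, and partner genes 1 to 10 higher and 1 to 12 lower. Calls over all genes moved in the same fits, from 2.16% to 18.3% higher and from 2.14% to 11.8% lower. With the replicate number as a block, 0 members and 0 partner genes were called in either direction, against 2 higher and 18 lower over all genes. The numbers pair 2 libraries only, WT 1 with KO line 1 and WT 2 with KO line 2, whose deviations from the group means correlated at 0.14 and 0.10, and nothing in the labels ties them. Chd8 changed sign with median ratio scaling (-0.03). Leaving out 1 library turned the sign of 15 uncalled members, whose log2 changes then ranged from -0.12 to 0.31 for Arid1a, -0.03 to 0.41 for Arid1b, -0.34 to 0.04 for Arid4a, -0.10 to 0.00 for Bptf, -0.23 to 0.12 for Chd1, -0.16 to 0.01 for Chd1l, -0.28 to 0.17 for Chd2, -0.12 to 0.05 for Chd4, -0.02 to 0.05 for Chd8, -0.50 to 0.02 for Ino80, -0.43 to 0.04 for Ino80d, -0.04 to 0.64 for Smarca5, -0.13 to 0.01 for Smarcad1, -0.04 to 0.22 for Smarcb1 and -0.81 to 0.13 for Smarcd3. The cause of these shifts was not tested. With 2 WT libraries, changes as small as those of most remodelers often have intervals that include 0.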
